A study of Sus scrofa domesticus with 11 samples.

Results

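The genes described here mark the endothelial cells of the liver. Of 10 listed genes, 9 have a row under that name among the 22029 genes of the deposited table, each with 1 row. They are the 7 pan-endothelial genes PECAM1, CDH5, ENG, KDR, TEK, TIE1 and VWF, and the sinusoidal scavenger genes STAB1 and LYVE1. The remaining listed gene, STAB2, has no row under its name and was not analysed here, so the scavenger side rests on 2 of 3 listed genes. The genes were taken by name, not by their values in these libraries, but with earlier results of the same data known.

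The liver RNA came from Yorkshire piglets that were born preterm and received parenteral nutrition, which is feeding by vein, and was taken on day of life 15. The SEFA-6179 group, 5 libraries, received 48 mg/kg of SEFA-6179, a test compound named in the labels by this code alone. The MCT group, 6 libraries, received the same volume of vehicle, 3 ml/kg. The abbreviation MCT means medium-chain triglyceride in this study. Preterm birth, parenteral nutrition, breed and age were shared by both groups. The labels give neither sex nor litter nor a batch. RNA of whole liver pieces was sequenced, and nothing in the labels says that cells were sorted. The SEFA-6179 libraries held 16821201 to 19215097 counts and the MCT libraries 15974977 to 23416071. The question of the series was how SEFA-6179 and MCT livers differ in their RNA. The p-values measure the spread between these libraries, taken as 1 animal each.

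Blood crosses the liver through sinusoids, capillaries whose endothelial cells are perforated and lack a continuous basement membrane. These cells carry general endothelial genes, such as those for junction proteins and for the receptors of vascular growth factors. They also carry scavenger receptors, by which they clear hyaluronan, modified proteins and other waste from the blood. The endothelium of arteries and veins shares the general genes, has more von Willebrand factor and has few of the scavenger receptors.

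All 9 genes were well counted, and all had somewhat higher estimates in SEFA-6179 livers, from 1.05-fold for ENG to 1.46-fold for VWF, but none passed the test. The lowest count of any of them in any library was 408, for VWF, and all 9 passed the low-count filter. With p-values of the edgeR quasi-likelihood test adjusted by Benjamini-Hochberg over all 13671 genes tested, 0 of 9 passed 0.05, where 0.219% of genes did. At an unadjusted p below 0.05 the test gave 3 of 9, namely VWF, CDH5 and LYVE1, all with higher values in SEFA-6179, where 5.24% of all genes tested lay higher at that level. DESeq2 also called 0 of 9, where it called 2.06% of genes, and none of the 9 had an adjusted p below 0.05 in the authors' deposited table, where 1.16% of genes with a p-value did. All 9 estimates were above 0, where 49.8% of all genes tested were, and their median log2 fold change was 0.34, against -0.0015 over all genes. With plain library totals in place of TMM scaling (trimmed mean of M values), which moved the median of all genes to -0.105, 8 of 9 were above 0. In no member did every SEFA-6179 library lie above every MCT library, a separation found in 0.673% of genes. In bulk liver, more endothelial cells and more RNA of these genes per endothelial cell cannot be told apart, nor can fewer cells and less RNA per cell.

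**Figure D1:**
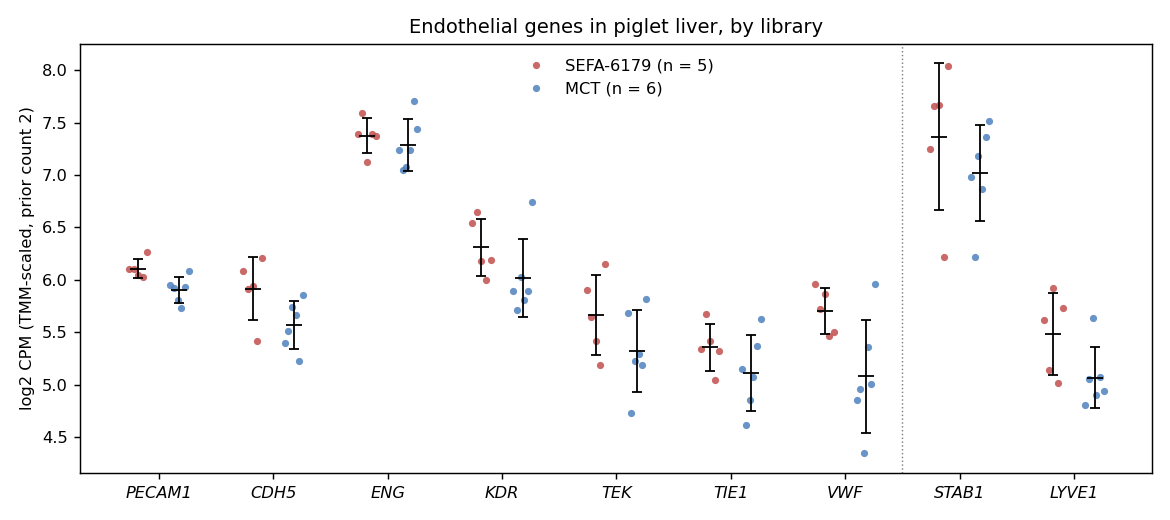
Level of each endothelial gene in each library, as log2 CPM (counts scaled to the library total, TMM-adjusted, prior count 2), with SEFA-6179 in red and MCT in blue. Points are libraries, bars show the mean ± SD, and the dotted line separates the pan-endothelial genes from the scavenger genes. The groups overlap for all 9 genes.

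In the deposited table, whose genome build no source used here states, PECAM1 (ENSSSCG00000017277) lies on chromosome 12 from 14582481 to 14723336, and CDH5 (ENSSSCG00000035772) on chromosome 6 from 27108609 to 27142180. On chromosome 1 lie ENG (ENSSSCG00000005625), from 268306120 to 268343827, and TEK (ENSSSCG00000005122), from 195937394 to 196051957. KDR (ENSSSCG00000008844) lies on chromosome 8 from 41809116 to 41856339, and TIE1 (ENSSSCG00000003950) on chromosome 6 from 167919668 to 167940874. STAB1 (ENSSSCG00000011443) lies on chromosome 13 from 34631693 to 34664420, and LYVE1 (ENSSSCG00000029886) on chromosome 2 from 48937417 to 48954203. VWF is ENSSSCG00000000712. Besides PECAM1 and ENG, of which the overlapping genes are given with their values, STAB1 overlaps NT5DC2 (mean count 9.0) on the other strand, and no other gene of the table overlaps the remaining 6. The 9 genes are counted per gene, so transcripts of 1 gene are not separated.

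Levels per kilobase were compared with the deposited FPKM values (fragments scaled to gene length and to sequencing depth). ENG was the highest of the 9, at 24.2 ± 2.70 FPKM with SEFA-6179 and 23.03 ± 4.30 FPKM with MCT (SD, n = 5 and 6). LYVE1 followed, at 19.2 ± 5.03 FPKM with SEFA-6179 and 14.3 ± 3.23 FPKM with MCT. VWF was the lowest, at 4.39 ± 0.671 FPKM with SEFA-6179 and 3.00 ± 1.202 FPKM with MCT, and it was below TEK in 11 of 11 libraries. CDH5, KDR, STAB1, TIE1, PECAM1 and TEK lay between, with means over all libraries from 12.8 FPKM for CDH5 to 6.499 FPKM for TEK. The order was least firm in the middle: CDH5 exceeded KDR in 7 of 11 libraries, and KDR exceeded STAB1 in 7 of 11. ENG exceeded LYVE1 in 9 of 11 libraries.

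Among the junction proteins, CDH5, which encodes VE-cadherin, the cadherin of endothelial adherens junctions, was measured at 67.8, 60.3, 61.2, 42.7 and 74.0 CPM in SEFA-6179 replicates 1 to 5. In MCT it ran from 37.4 CPM through a median of 48.0 to 57.7 CPM. Thus 4 of 5 SEFA-6179 livers exceeded the whole MCT range, and replicate 4 lay within it. The log2 fold change was 0.36 ± 0.16 (SE), or 1.28-fold with a 95% interval of 1.01 to 1.62, with an edgeR adjusted p of 0.426. PECAM1 encodes an adhesion molecule found at endothelial contacts and also on platelets and leukocytes. It was at 68.6, 68.5, 66.0, 65.1 and 76.8 CPM in SEFA-6179 replicates 1 to 5, and from 52.9 through a median of 60.9 to 67.9 CPM in MCT. It varied least of the 9, with a coefficient of variation of 6.69% in SEFA-6179 and 8.62% in MCT. All 5 SEFA-6179 libraries were above 5 of the 6 MCT libraries, and 3 were above all 6. The fold was 1.15, with a 95% interval of 0.972 to 1.36 and an edgeR adjusted p of 0.544. The log2 fold change was 0.20 with TMM and 0.10 with plain library totals. The PECAM1 locus overlaps that of DDX5 (mean count 5880), which has the same orientation, and that of MILR1 (mean count 15.3), which has the opposite one.

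ENG encodes endoglin, a co-receptor for ligands of the BMP and TGF-beta family on endothelium. Its estimate was the nearest to 0 of the 9. SEFA-6179 replicates 1 to 5 gave 168, 192, 139, 168 and 166 CPM, and MCT ran from 132 through a median of 151 to 209 CPM. No SEFA-6179 library exceeded the highest MCT library, replicate 5. The log2 fold change was 0.07 ± 0.15 (SE), with a 95% interval of -0.25 to 0.40 and an edgeR adjusted p of 0.900. It was -0.02 with plain library totals. With 1 library left out it ran from 0.02, without SEFA-6179 replicate 2, to 0.17, without MCT replicate 5, and it was 0.03 without MCT replicate 2 or MCT replicate 3 and 0.13 without SEFA-6179 replicate 3. The ENG locus overlaps that of FPGS (mean count 408), which runs in the opposite direction, and that of a U2 gene (mean count 2.0) on its own strand. Whether reads were counted by strand is not stated in any source used here.

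The growth factor receptors had estimates of 1.17-fold to 1.26-fold. KDR, the main signalling receptor for VEGF-A on endothelium, was at 92.8, 99.99, 72.3, 63.6 and 72.9 CPM in SEFA-6179 replicates 1 to 5. In MCT it ran from 52.2 through a median of 59.4 to 107 CPM, and the highest MCT library, replicate 6, exceeded every SEFA-6179 library. Its log2 fold change was 0.27 ± 0.19 (SE) with an edgeR adjusted p of 0.658, and plain library totals gave 0.16. Without MCT replicate 6 it was 0.46, with an edgeR adjusted p of 0.208. It fell to 0.19 without SEFA-6179 replicate 2 and to 0.21 without SEFA-6179 replicate 1 (edgeR adjusted p = 0.83 and 0.77). TEK encodes TIE2, the receptor of the angiopoietins. It was at 59.8, 50.02, 42.5, 36.4 and 70.8 CPM in SEFA-6179 replicates 1 to 5, and from 26.3 through a median of 38.2 to 56.1 CPM in MCT. The groups overlapped over most of their range. For TEK the log2 fold change was 0.34 ± 0.21 (SE) with an edgeR adjusted p of 0.592, and it was 0.20 without SEFA-6179 replicate 5. TIE1, a related receptor that modulates TIE2 signalling, was at 40.3, 50.9, 42.5, 32.9 and 39.8 CPM in SEFA-6179 replicates 1 to 5, and from 24.4 through a median of 34.4 to 49.4 CPM in MCT. Only SEFA-6179 replicate 2 exceeded the highest MCT library. Its log2 fold change was 0.22 ± 0.18 (SE), with an edgeR adjusted p of 0.698. It was 0.14 with SEFA-6179 replicate 2 or MCT replicate 2 left out, 0.12 with plain library totals, and 0.34 without MCT replicate 6.

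VWF had the largest estimate of the 9. It encodes von Willebrand factor, which tethers platelets to injured vessel walls and carries coagulation factor VIII in plasma. SEFA-6179 replicates 1 to 5 were at 62.2, 52.5, 58.2, 44.0 and 45.2 CPM, and MCT ran from 20.2 through a median of 31.5 to 61.9 CPM. All 5 SEFA-6179 libraries exceeded 5 of the 6 MCT libraries. MCT replicate 6, at 61.9 CPM, lay above 4 of the 5. On the log2 scale the fold change was 0.55 ± 0.23 (SE), or 1.46-fold with a 95% interval of 1.04 to 2.07, and the edgeR adjusted p was 0.397. Over all alternative fits the estimate ran from 0.43 to 0.80, and the adjusted p from 0.0945, without MCT replicate 6, to 0.557. The coefficient of variation was 15.2% in SEFA-6179 and 40.3% in MCT. In the deposited table the VWF locus spans 482913 bases on chromosome 5 (64519186 to 65002098), where the other 8 genes span 16787 to 140856 bases. Whether this gene model holds sequence of more than 1 gene could not be settled from the sources used here, so the VWF level and estimate are those of the deposited locus.

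**Figure D2:**
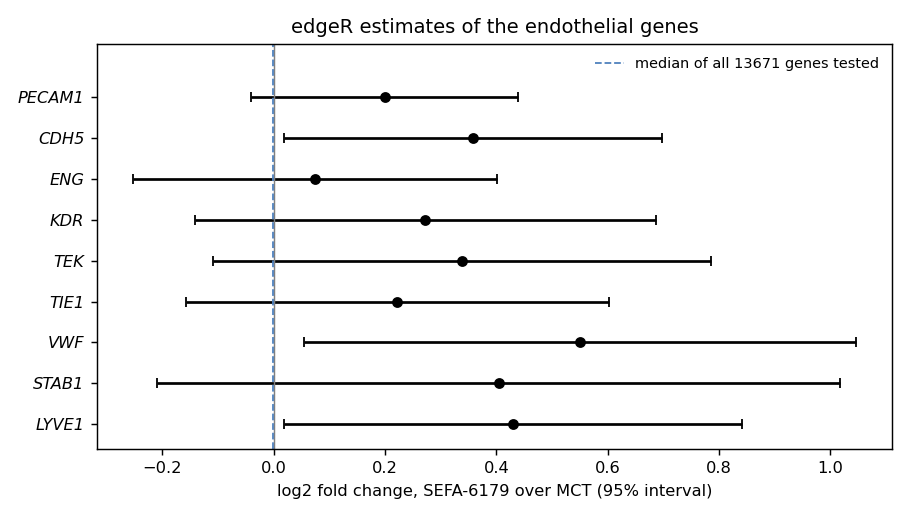
Log2 fold change of each endothelial gene, SEFA-6179 over MCT, from edgeR, with its 95% interval. Points are estimates from 5 SEFA-6179 and 6 MCT libraries, and the dashed line is the median of all genes tested. All 9 estimates lie right of 0, the intervals of VWF, CDH5 and LYVE1 exclude 0 before adjustment, and none passed the adjusted threshold.

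LYVE1 encodes a hyaluronan receptor of lymphatic and sinusoidal endothelium. It was at 48.9, 35.1, 60.3, 32.1 and 52.9 CPM in SEFA-6179 replicates 1 to 5, and from 27.8 through a median of 31.8 to 49.5 CPM in MCT. SEFA-6179 replicates 3 and 5 lay above all MCT libraries. The highest MCT library was replicate 3, and the other 5 MCT libraries were at 33.6 CPM or below. The log2 fold change was 0.43 ± 0.19 (SE), or 1.35-fold with a 95% interval of 1.01 to 1.79, with an edgeR adjusted p of 0.432. STAB1 encodes stabilin-1, a scavenger receptor of sinusoidal endothelium that some macrophages also carry. SEFA-6179 replicates 1 to 5 gave 152, 202, 203, 74.2 and 263 CPM, and MCT ran from 74.4 through a median of 136 to 183 CPM. SEFA-6179 held both the highest library, replicate 5, and the lowest, replicate 4. The log2 fold change was 0.40 ± 0.29 (SE), with a 95% interval of -0.21 to 1.02 and an edgeR adjusted p of 0.656. It was 0.61 with SEFA-6179 replicate 4 left out, 0.22 with SEFA-6179 replicate 5 left out, and 0.26 with the level of EIF1AY, a Y-linked gene, as a covariate.

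Markers of macrophages differed more between libraries than the endothelial genes did. The summed level of 9 macrophage markers, among them CD163 and the C1q genes, was 62.6 CPM in SEFA-6179 replicate 4 and 1079 to 2352 CPM in the other SEFA-6179 libraries. In MCT it was 212 CPM in replicate 5 and 466.5 to 1363 CPM in the other 5. C1QA, a chain of complement C1q, had the smallest p and the largest estimate of these, at 296 ± 200.1 CPM in SEFA-6179 livers and 163 ± 101 CPM in MCT livers (SD, n = 5 and 6; edgeR adjusted p = 0.717). Of these 9 markers 8 had estimates above 0, with a median of 0.35, and none passed the threshold, none of the 9 was at 0 in any library, and 2 further listed markers, CD5L and ADGRE1, were not analysed here. STAB1 was low where macrophage markers were low in SEFA-6179 replicate 4, at 74.2 CPM. It was about as low, at 74.4 CPM, in MCT replicate 2, where the macrophage sum was 714 CPM, and it was 164 CPM in MCT replicate 5, where the sum was 212 CPM. LYVE1 was at 60.3, 52.9 and 32.1 CPM in SEFA-6179 replicates 3, 5 and 4, where the sums were 2352, 1616 and 62.6 CPM. In SEFA-6179 replicates 1 and 2 it was at 48.9 and 35.1 CPM, where the sums were close, at 1079 and 1107 CPM. In MCT replicates 3, 4 and 5 LYVE1 was at 49.5, 29.8 and 33.6 CPM, where the sums were 1320, 1363 and 212 CPM. MRC1, the mannose receptor of both sinusoidal endothelium and macrophages, reached 80.0 CPM in SEFA-6179 replicate 4, and 102 to 122 CPM in the other SEFA-6179 libraries, against 54.1 to 124 CPM in MCT. The part of macrophage RNA in the STAB1 and LYVE1 values was not tested. Without SEFA-6179 replicate 4 and MCT replicate 5, the log2 fold change of STAB1 was 0.67, with an edgeR adjusted p of 0.352.

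The scavenger genes were then set against the pan-endothelial genes within each library, as the mean log2 CPM of STAB1 and LYVE1 minus that of the 7 pan-endothelial genes. This difference was 0.24, 0.21, 0.79, -0.18 and 0.74 in SEFA-6179 replicates 1 to 5, and ran from 0.01 through a median of 0.15 to 0.82 in MCT. It averaged 0.36 ± 0.40 in SEFA-6179 and 0.29 ± 0.30 in MCT (SD, n = 5 and 6), so the groups were 0.07 apart, less than the spread within either. The highest MCT value, 0.82 in replicate 3, exceeded every SEFA-6179 library. The sign of the difference between groups was not stable, since leaving out SEFA-6179 replicate 3 gave -0.03 and leaving out SEFA-6179 replicate 5 gave -0.02. No test was made of this score, because its genes were chosen with results of these data known.

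**Figure D3:**
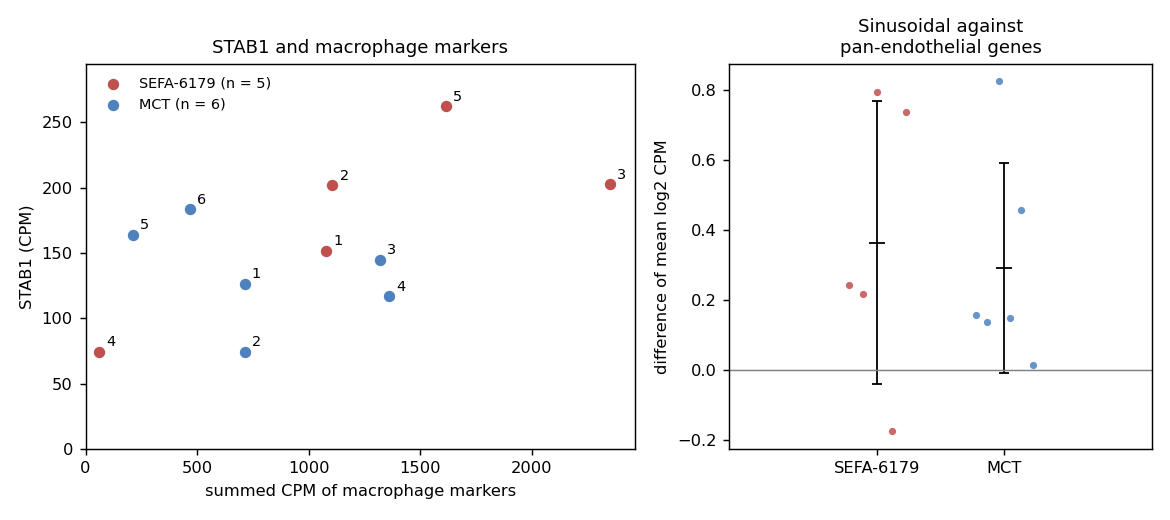
Left, STAB1 in CPM against the summed CPM of 9 macrophage markers, with SEFA-6179 in red and MCT in blue and each point a library numbered by replicate; SEFA-6179 replicate 4 is low on both axes, and MCT replicate 2 has a like STAB1 level with a macrophage sum of 714 CPM. Right, the mean log2 CPM of STAB1 and LYVE1 minus that of the 7 pan-endothelial genes, with mean ± SD; SEFA-6179 averages 0.36 and MCT 0.29, and the groups overlap.

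Single libraries sat at one end of their group for most of the 9 genes. SEFA-6179 replicate 4 had the lowest level of its group in 8 of 9, all but ENG. MCT replicate 6 had the highest of its group in 7 of 9, all but ENG and LYVE1, and MCT replicate 2 the lowest in 5 of 9. Summed over the 9 genes, the level was 559 CPM in SEFA-6179 replicate 4 and 745 to 861 CPM in the other SEFA-6179 libraries, against 479 to 787 CPM in MCT, where the highest was replicate 6. The median log2 fold change of the 9 genes was 0.45 with SEFA-6179 replicate 4 left out, 0.42 with MCT replicate 6 left out and 0.23 with SEFA-6179 replicate 5 left out. With group means removed, the Pearson correlation between genes over the 11 libraries was above 0 for 30 of 36 gene pairs, with a median of 0.42. It was highest for KDR with TIE1, at 0.76, and lowest for ENG with LYVE1, at -0.46. These values share library scaling and whatever endothelial cells each piece of liver held, and serve as a description only.

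Among the genes whose levels followed the mean of the 7 pan-endothelial genes most closely, of 11145 named genes at 1 CPM or more, were TMEM204 (Pearson r = 0.92 over 11 libraries), NOTCH4 (0.90), HSPA12B (0.87) and TSPAN18 (0.87). NOTCH4 is a Notch receptor expressed mainly in endothelium, and HSPA12B is a heat shock protein family member of endothelium. Those closest to the mean of STAB1 and LYVE1 were ZNF470 (0.92), EBI3 (0.91), ARHGAP28 (0.89), F8 (0.89) and GMFG (0.89). Spearman's rho of these 9 genes was 0.72 to 0.92. F8 encodes coagulation factor VIII, which sinusoidal endothelium makes. The cell source of ZNF470, EBI3, ARHGAP28 and GMFG was not tested, so this list does not mark a cell type. Leaving out the 2 libraries farthest from the median of the score, r stayed between 0.83 and 0.93 for all 9. These genes were picked as the highest of many, so r is a description and no p is given.

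Other genes of the endothelium also had estimates mostly above 0. Of all 137 genes tested beside the 9, in every list named from here on and among the macrophage markers, 0 passed an adjusted p of 0.05 by edgeR, where 0.219% of all genes tested did, and 20 had an unadjusted p below 0.05, where 10.8% of all genes tested did. By DESeq2, where 2.06% of all genes passed, 4 of the 137 did, namely the bile duct markers EPCAM, SOX9 and CD24 and the integrin gene ITGB3. Of 26 other pan-endothelial genes tested, 23 had estimates above 0, with a median log2 fold change of 0.27. The smallest p of these was that of EMCN, which encodes endomucin, a sialomucin of capillary and venous endothelium. EMCN was at 12.9 ± 2.42 CPM in SEFA-6179 livers and 8.11 ± 2.51 CPM in MCT livers (SD, n = 5 and 6; edgeR adjusted p = 0.283). ROBO4, a guidance receptor that stabilises vessels, had the largest estimate, at 11.96 ± 3.08 CPM in SEFA-6179 livers and 7.41 ± 3.57 CPM in MCT livers. Of 14 further sinusoidal genes tested, 11 were above 0, with a median of 0.25. Besides MRC1, at 106 ± 17.3 CPM in SEFA-6179 livers and 77.8 ± 24.3 CPM in MCT livers (edgeR adjusted p = 0.411), WNT2 had the largest estimate. This endothelial signal to hepatocytes was at 8.40 ± 4.201 CPM in SEFA-6179 livers and 5.04 ± 1.77 CPM in MCT livers (edgeR adjusted p = 0.464).

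Of 7 tested VEGF ligands and receptors beside KDR, 6 were above 0, with a median of 0.24. FLT1, the decoy-like receptor for VEGF-A, was at 25.5 ± 3.97 CPM in SEFA-6179 livers and 20.8 ± 4.43 CPM in MCT livers (edgeR adjusted p = 0.539). Of the 4 genes of the angiopoietin axis, 2 were above 0, with a median of 0.01. PTPRB, which encodes VE-PTP, a phosphatase that restrains TIE2, was at 30.0 ± 5.24 CPM in SEFA-6179 livers and 22.96 ± 5.18 CPM in MCT livers (edgeR adjusted p = 0.428). Of 15 genes around endoglin and the BMP receptors, 9 were above 0, with a median of 0.01. The largest estimate was that of SMAD9, a BMP-regulated SMAD, at 0.560 ± 0.125 CPM in SEFA-6179 livers and 1.24 ± 0.954 CPM in MCT livers (edgeR adjusted p = 0.490). Of 7 tested genes listed as VWF partners or other coagulation and platelet genes, 5 were above 0, with a median of 0.19. TFPI, an inhibitor of the tissue factor pathway, was at 1.25 ± 0.712 CPM in SEFA-6179 livers and 0.598 ± 0.279 CPM in MCT livers (edgeR adjusted p = 0.408).

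Notch and arterial genes were above 0 in 8 of 11 cases, with a median of 0.33. EFNB2, an ephrin of arterial endothelium, was at 5.69 ± 1.49 CPM in SEFA-6179 livers and 3.66 ± 1.59 CPM in MCT livers (edgeR adjusted p = 0.487). HES1, a Notch target that many cell types share, had an estimate below 0. All 5 SEFA-6179 libraries, from 7.60 to 10.5 CPM, were below all 6 MCT libraries, from 10.8 to 18.6 CPM, with an edgeR adjusted p of 0.200. The bile duct marker CD24 was separated likewise, at 2.28 to 5.05 CPM in SEFA-6179 and 5.62 to 11.6 CPM in MCT. The share of all genes separated in this direction was not counted, and the opposite separation was found in 0.673% of genes tested. HES1 and CD24 were seen among 137 list genes, so their separation is a description only. The leukocyte adhesion molecule VCAM1 was at 43.5 ± 14.0 CPM in SEFA-6179 livers and 75.2 ± 19.7 CPM in MCT livers (log2 fold change -0.79 ± 0.25 SE, edgeR adjusted p = 0.248), while 1 of 3 adhesion genes tested was above 0, with a median of -0.42. Among 4 shear-responsive genes, 3 were above 0, with a median of 0.08, and KLF4 was at 2.47 ± 1.199 CPM in SEFA-6179 livers and 1.63 ± 0.727 CPM in MCT livers (edgeR adjusted p = 0.647). Of 6 tested genes of hyaluronan turnover, 3 were above 0, with a median of -0.05. CD44, the hyaluronan receptor of many cell types, was at 25.9 ± 10.1 CPM in SEFA-6179 livers and 36.9 ± 10.6 CPM in MCT livers (edgeR adjusted p = 0.515). Of 4 tested lymphatic genes, 3 were above 0, with a median of 0.14, and another listed gene did not pass the low-count filter. FLT4 is counted both here and among the VEGF receptors. PROX1, which hepatocytes also express, was at 22.0 ± 5.04 CPM in SEFA-6179 livers and 17.6 ± 6.82 CPM in MCT livers, and FLT4, a receptor for VEGF-C, was at 45.7 ± 6.40 CPM in SEFA-6179 livers and 37.8 ± 9.49 CPM in MCT livers (edgeR adjusted p = 0.729 and 0.621).

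**Figure D4:**
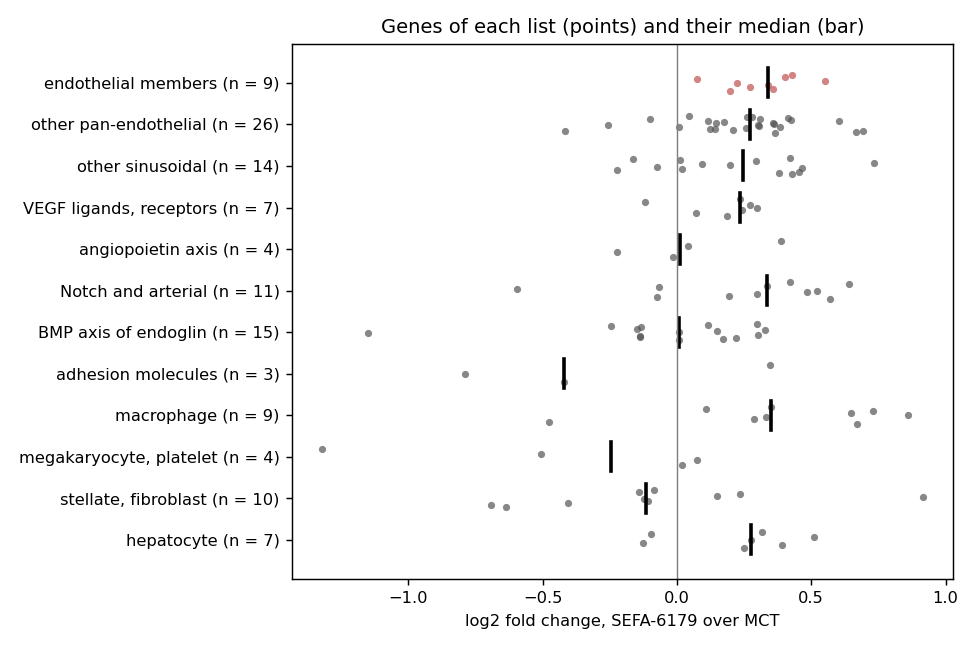
Log2 fold change, SEFA-6179 over MCT, of each gene tested in the endothelial set (red) and in the other lists (grey), with black bars at the list medians. The medians of the endothelial genes, 0.34, and of the other pan-endothelial and sinusoidal genes, 0.27 and 0.25, lie right of 0, as do those of macrophage and hepatocyte genes, 0.35 and 0.28, and no gene shown passed the adjusted threshold by edgeR.

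Markers of other cells were read beside these values. Hepatocyte markers were above 0 in 5 of 7 cases with a median of 0.28, and their summed level ran from 85332 to 162073 CPM in SEFA-6179 livers and from 56193 to 145359 CPM in MCT livers. Most of that sum is albumin. FGB, a fibrinogen chain, was at 17508 ± 9095 CPM in SEFA-6179 livers and 12279 ± 3003 CPM in MCT livers (edgeR adjusted p = 0.555). Stellate cell and fibroblast genes were above 0 in 3 of 10 cases with a median of -0.12, and had summed levels of 569 to 886 CPM in SEFA-6179 livers and 671 to 1092 CPM in MCT livers. COL1A2, a fibrillar collagen chain, was at 83.8 ± 16.6 CPM in SEFA-6179 livers and 135 ± 41.1 CPM in MCT livers, and RGS5, a pericyte marker, was at 18.7 ± 9.15 CPM in SEFA-6179 livers and 9.87 ± 4.43 CPM in MCT livers (edgeR adjusted p = 0.225 and 0.341). Bile duct markers were above 0 in 0 of 6 cases with a median of -1.13, and had summed levels of 34.9 to 72.0 CPM in SEFA-6179 livers and 44.5 to 133 CPM in MCT livers. CD24 was at 3.39 ± 1.19 CPM in SEFA-6179 livers and 8.43 ± 1.97 CPM in MCT livers, and SOX9 was at 1.85 ± 0.644 CPM in SEFA-6179 livers and 5.62 ± 2.85 CPM in MCT livers (edgeR adjusted p = 0.0539 and 0.148). Erythroid genes were above 0 in 1 of 4 cases, with a median of -0.33. That gene, HBB of adult haemoglobin, was at 337 ± 103 CPM in SEFA-6179 livers and 201 ± 107 CPM in MCT livers (edgeR adjusted p = 0.440). The summed level of the erythroid list was 224 to 494 CPM in SEFA-6179 livers and 106 to 417 CPM in MCT livers.

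VWF, PECAM1 and TEK are also found in megakaryocytes or blood stem cells, and VWF and PECAM1 in platelets. Platelet and megakaryocyte markers were above 0 in 2 of 4 tested cases with a median of -0.245, and had summed levels of 43.0 to 65.4 CPM in SEFA-6179 livers and 68.3 to 127 CPM in MCT livers. GP1BA, the platelet receptor for VWF, was at 0 in 3 of 5 SEFA-6179 and 4 of 6 MCT libraries and was not tested. ITGB3, an integrin chain of platelets and other cells, was at 20.1 ± 9.14 CPM in SEFA-6179 livers and 50.1 ± 27.3 CPM in MCT livers (edgeR adjusted p = 0.240). The gap between the summed levels lay mostly in ITGB3. ITGA2B was at 34.9 ± 2.65 CPM in SEFA-6179 livers and 34.5 ± 6.24 CPM in MCT livers (edgeR adjusted p = 0.983). GP9 was at 0.722 ± 0.529 CPM in SEFA-6179 livers and 0.682 ± 0.209 CPM in MCT livers (edgeR adjusted p = 0.979). The part of any of these cell types in the endothelial values was not tested.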

How the data were processed

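Liver RNA of 11 libraries was sequenced, 5 SEFA-6179 and 6 MCT. Per the file headers, the deposited table gives raw read counts per gene, FPKM values, a log2 fold change, and a p-value and adjusted p-value for each gene. A deposited normalized signal has a fixed ratio to the count within each library and was not used. The submitters' processing notes name, without roles, the aligner HISAT2 2.0.5, the assembler StringTie 1.3.3b, the read counter featureCounts 1.5.0-p3 and the test package DESeq2 1.20.0. Genome build, annotation and strand setting: not given in the sources used here.

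Testing of the counts used edgeR 4.0.16 (R 4.3.3), with filterByExpr at a minimum count of 10 (13671 genes kept), TMM scaling and the robust quasi-likelihood test, two-sided, adjusted over all genes. Standard errors are the log2 fold change over the root of its F statistic, and 95% intervals use the degrees of freedom of the fit. CPM are TMM-scaled, and log2 CPM use a prior count of 2. The test was first checked on simulated data. Alternatives were DESeq2 1.42.0, limma 3.58.1 with library quality weights, other filters and scalings, a replicate block, EIF1AY (Y-linked) as a covariate, and each library left out. Library totals and a gene length correction were added after the data were seen.

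The table names 14022 genes, and 779 more were named by identifier from a reference list. The genes and lists were chosen with earlier results of these data known. All 9 genes are reported. Of each list the text names the gene with the smallest p and the one with the largest estimate, and beside these the 5 genes most like each class, of which 1 is not reported here. CD163, the C1q genes, ITGA2B, GP9 and GP1BA are named as defining markers. Replicates differed by at least 45.6 in chi-square per degree of freedom, so none was a repeat deposit. The planned score held 3 scavenger genes, of which 2 were measured. No sequence is shown.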

Additional observations from a re-analysis of the deposited data

Results flagged for a closer look

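In 7 of 100 groups examined, 1 library lay far from the rest of its group, by the gap to its nearest neighbour as a share of the group's range. Chance gives about 1 in 20, or 5.

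Among the endothelial genes, MCT replicate 6 had 107 CPM of KDR while the remaining MCT libraries had 52.2 to 65.2 CPM, and LYVE1 was at 49.5 CPM in MCT replicate 3, against 27.8 to 33.6 CPM. The summed level of the list of VWF partners and other coagulation and platelet genes was 33.0 CPM in SEFA-6179 replicate 4. It was 39.6 to 40.9 CPM in the other SEFA-6179 libraries. That of the lymphatic genes was 103 CPM in SEFA-6179 replicate 3, against 137 to 149 CPM. FGB was at 33519 CPM in SEFA-6179 replicate 3, against 11171 to 15362 CPM, and RGS5 was at 34.6 CPM in SEFA-6179 replicate 1, against 11.03 to 16.6 CPM. MCT replicate 5 had 102 CPM of ITGB3, and the remaining MCT libraries had 29.2 to 51.9 CPM.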

How the results depend on the processing

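None of the 9 endothelial genes passed the threshold in any of 21 alternatives, and 8 of them kept an estimate above 0 in each. ENG fell below 0, at -0.0233, with library totals in place of TMM. The median log2 fold change of the 9 ran from 0.23 to 0.45 over the tests without 1 library. The difference between scavenger and pan-endothelial genes turned to -0.0347 and -0.0205 without SEFA-6179 replicate 3 or 5, and ran from there to 0.21 without 1 library. The number of genes called over the whole table, 30, was 276 with DESeq2, 60 with limma, 6 with EIF1AY as a covariate, 1 without SEFA-6179 replicate 4 and MCT replicate 5 together, and from 0 to 53 without 1 library. Leaving out SEFA-6179 replicate 5 gave 0 by edgeR (1184 at an unadjusted p under 0.05; 165 by DESeq2), and so did leaving out MCT replicate 4 (1258 and 167 in the same measures). Leaving out SEFA-6179 replicate 1 or MCT replicate 2 gave 9, MCT replicate 1 gave 1, MCT replicate 3 gave 16, and SEFA-6179 replicate 3 gave 53. The replicate numbers do not pair the animals by any label, and same-numbered libraries deviated together with correlations of -0.149 to 0.202, and the replicate block over replicates 1 to 5 called 8 genes, with a median of 0.41 for the endothelial genes. Each endothelial gene had at least 408 counts in each library. The cause of these changes was not tested.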
